A study of Mus musculus with 7 samples.

Results

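Glycolysis and hypoxia-response genes were followed in the mouse uterus after intrauterine CXCL12. The set was chosen by gene symbol and holds 33 of the 23282 rows listed in each library's table. It consists of glucose and lactate transporters, glycolytic enzymes, enzymes of lactate and pyruvate, the hypoxia-inducible factors (HIF) with their oxygen sensors, and well known HIF targets. Transcripts were read from their 3′ ends (QuantSeq) in 7 libraries of uterine tissue, namely 2 Saline, 2 CXCL12 Day 3 and 3 CXCL12 Day 8 libraries. The animals were C57BL/6 females of 6 weeks. Recombinant human CXCL12 (100 ng in 30 µl) was given into the cavity of one uterine horn and saline into that of the opposite horn, so all groups shared surgery under anaesthesia. Tissue was taken 3 or 8 days later, and no day is stated for the Saline libraries. The labels do not say which libraries came from one animal or whether tissue was pooled, so the tests measure only the spread between these libraries.

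Glycolysis splits glucose into pyruvate and yields ATP without oxygen. The upper steps take up and phosphorylate glucose, the lower steps recover ATP, and lactate dehydrogenase with the monocarboxylate transporters disposes of the end product. HIF1A and EPAS1 (HIF-2α) are transcription factors that prolyl hydroxylases of the EGLN family mark for destruction when oxygen is present. In low oxygen they persist, bind short DNA motifs that contain ACGTG or GCGTG, and raise the genes of glucose transporters, glycolytic enzymes, Pdk1, Bnip3, Ankrd37, Car9 and Egln3. In the uterus, glycolysis and lactate release are associated with proliferating and decidualizing stroma.

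The 6 count libraries held 6908790 to 12308982 counts, and members made up 0.164 to 0.203% of them. Day 3 replicate 1 was deposited on the log2 scale, and its counts were estimated. Levels are given as CPM (counts divided by the library total and scaled). A level of 3 counts corresponds to 0.251 to 0.362 CPM, which covers counting error only. Reads come from 3′ ends, so a level did not scale with transcript length. For Day 8 replicate 1 the label says Day 8 and the deposited table is named for Day 3, and the label was followed. On the log2 scale Day 8 replicate 1 correlated at r = 0.95 and 0.953 with the Day 3 libraries, against 0.894 and 0.901 with the other Day 8 libraries. With Saline replicates 1 and 2 it correlated at 0.893 and 0.942. It lay nearer the Day 3 mean than the mean of the other Day 8 libraries for 63.06% of all genes and 56.25% of members. Whether this library belongs to Day 3 or Day 8 was not tested. Saline replicate 1 correlated at 0.899 with Saline replicate 2, which correlated at 0.946 and 0.943 with the Day 3 libraries.

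A gene is described as called where its fold change reached 2 and its unadjusted P was under 0.05. Genes under an adjusted p of 0.1 were counted as well. The 2 comparisons with Saline share the same 2 Saline libraries and are given side by side. Of the 33 members, 32 passed the filter on low counts in every comparison. The exception was Eno1 (enolase 1), listed at 0 in each library. Reads of this gene could have been counted under Eno1b, since 83.8% of the 50-base words in the last 400 bases of Eno1 also occur in Eno1b. Gapdh, the glyceraldehyde-phosphate dehydrogenase, shared 87.7% of such words with 116 other genes, so its level is uncertain.

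**Figure D1:**
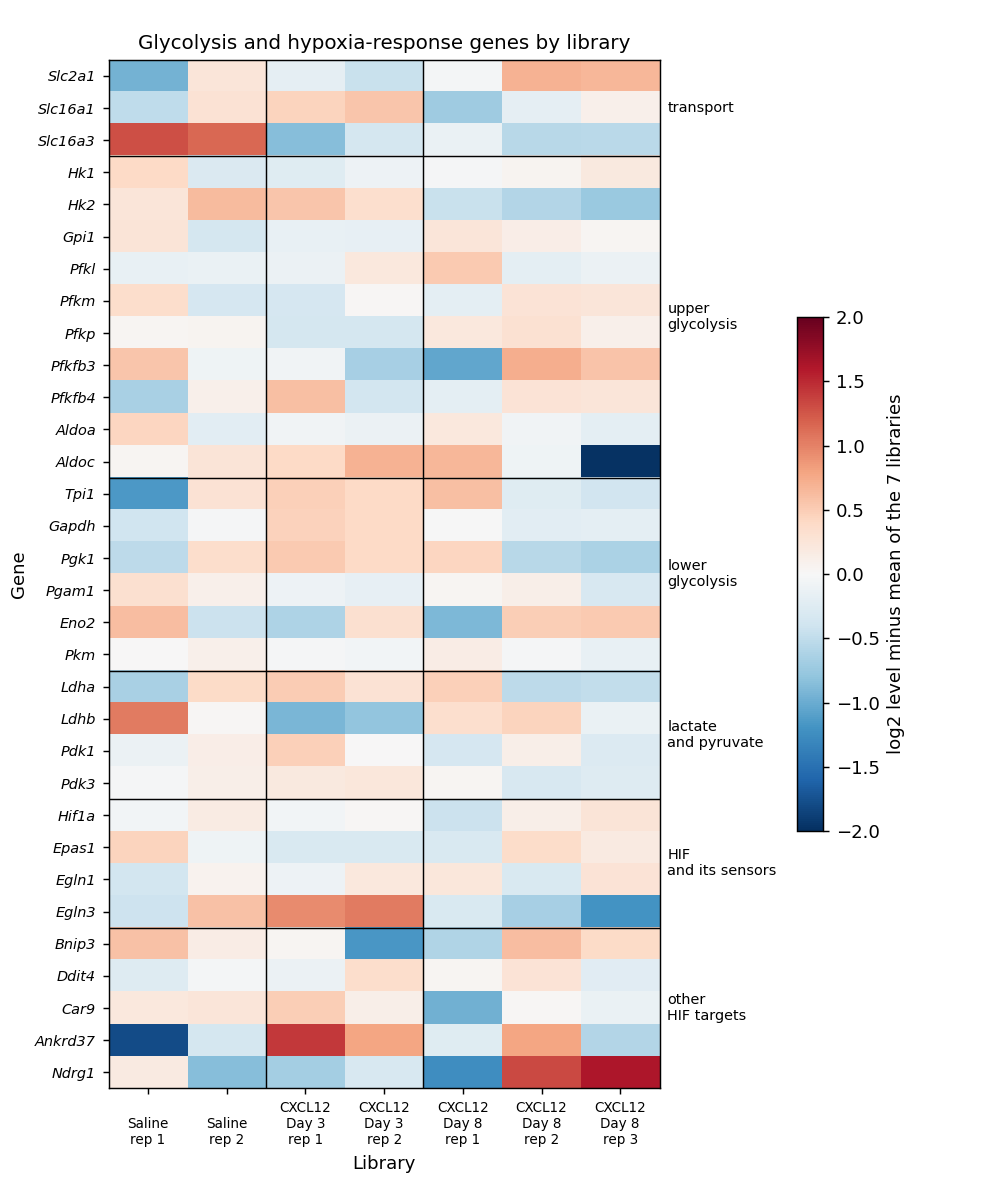
Level of the 32 tested members (rows, by role) in each library (columns), as the quantile-normalized log2 value minus the gene's mean over the 7 libraries, with colours ending at -2 and 2. No role was uniformly red or blue in a group, and Saline replicate 1 differed from Saline replicate 2 in the lower glycolysis genes Tpi1 and Pgk1.

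The median of the set lay close to that of all genes in both comparisons with Saline, which is a description with no test. In CXCL12 Day 8 against Saline, 15 members were higher and 17 lower, with a median log2 difference of -0.006 against -0.008 over all genes tested. In CXCL12 Day 3 against Saline, 17 were higher and 15 lower, with a median of 0.023 against 0.013. The medians of single roles at Day 3 ran from -0.14 in upper glycolysis to 0.229 in lower glycolysis. At Day 8 they ran from -0.195 for lactate and pyruvate to 0.176 for other HIF targets. At Day 8 edgeR called 2 of 32 members, both lower, beside 453 of 15388 genes or 2.94% of all tested. At Day 3 limma called 3 of 32 members, 1 higher and 2 lower, beside 688 of 14830 genes or 4.64%. In Day 8 against Day 3, limma called 3 members, beside 672 genes or 4.53%. With 2 or 3 members called, no departure from these background shares can be read. Without quantile normalization the Day 3 median of the members was -0.193 beside -0.263 for all genes, and with library totals alone the Day 8 median was -0.256 beside -0.268.

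No member passed the adjusted p of 0.1 in edgeR or limma in any of the 3 comparisons, and the share of all genes that did was 0%. At an unadjusted P below 0.05 in edgeR, 2 of 32 members passed in Day 8 against Saline, beside 658 of 15388 genes. In limma, 4 of 32 members passed in Day 3 against Saline, beside 1112 of 14830 genes. In Day 8 against Day 3, limma had 5 of 32 members, beside 1048 of 14830 genes. DESeq2, run for Day 8 against Saline, placed 49 genes and 0 members at the adjusted p of 0.1. The common biological coefficient of variation was 42.2%.

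**Figure D2:**
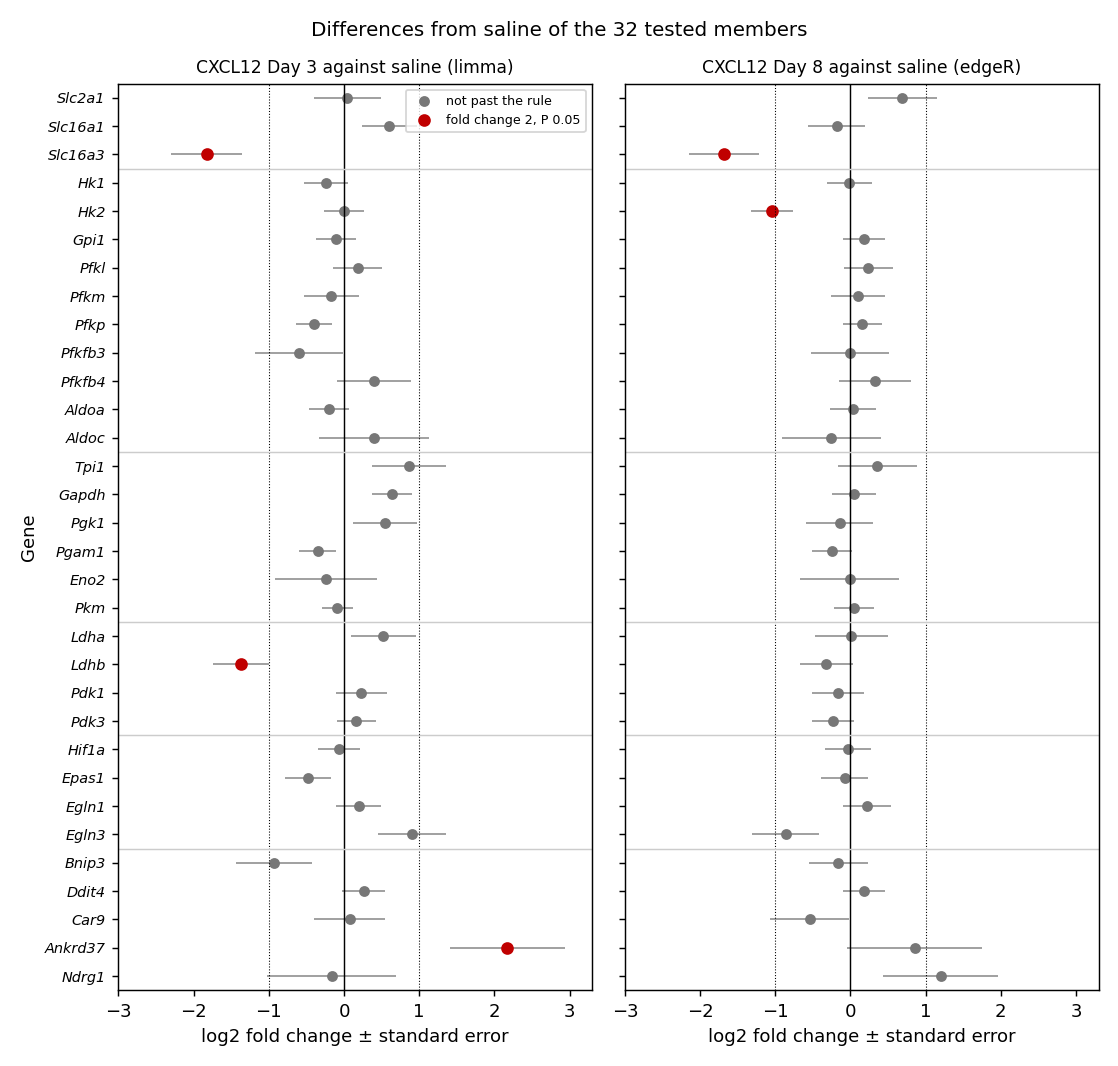
Log2 fold change with its standard error for the 32 tested members in CXCL12 Day 3 (left) and CXCL12 Day 8 (right) against the same 2 Saline libraries, with dotted lines at a fold change of 2. Slc16a3 stood left of the line in both panels, Ldhb and Ankrd37 passed the rule at Day 3 and Hk2 at Day 8 (red points).

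The 5 members called in a comparison are shown with promoter sequence because each holds a HIF core motif there. RefSeq promoters (GRCm38) matched 31 of 33 members, with none for Epas1 and Ndrg1. In the 250 bases before the start, ACGTG or GCGTG on either strand occurred in 36 of 44 member promoters (81.8%) and in 38.6% of all 32851 promoters. ACGTG alone was in 50% against 16.6%, and GCGTG alone in 54.5% against 28.2%. The set was chosen to hold HIF targets, so these shares say nothing about the libraries. By gene, 28 of the 31 members had a match, so a match does not set the called members apart. Some genes have several promoters. The palindrome CACGTG counts as ACGTG on both strands. Each sequence of 60 bases is printed 5′ to 3′ on the strand of the gene, with every match in capitals.
Hk2 (chr6:82774475-82774534, minus strand): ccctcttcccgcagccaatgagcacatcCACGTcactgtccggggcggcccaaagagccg
Ldhb (chr6:142508052-142508111, minus strand): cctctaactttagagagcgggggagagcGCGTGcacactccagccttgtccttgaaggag
Slc16a3 (chr11:120949007-120949066, plus strand): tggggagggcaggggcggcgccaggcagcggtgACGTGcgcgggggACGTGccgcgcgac
Egln3 (chr12:54204065-54204124, minus strand): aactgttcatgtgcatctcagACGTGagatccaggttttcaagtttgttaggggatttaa
Ankrd37 (chr8:45999851-45999910, minus strand): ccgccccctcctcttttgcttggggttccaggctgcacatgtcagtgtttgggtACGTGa
The Hk2 match lies on the opposite strand. The Hk2, Ldhb and Egln3 windows lie outside the bounds of these genes in GENCODE M21. Slc16a3 and Ankrd37 have RefSeq starts inside those bounds, and 14 and 17 bases of their windows overlap annotated exons. A match describes letters in the reference, and binding was not measured.

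Among the transporters, Slc16a3 was lower in both CXCL12 groups. It encodes MCT4, the monocarboxylate transporter that exports lactate from glycolytic cells. Its level was 6.77 and 6.51 CPM in the Saline libraries, 1.34 and 1.98 at Day 3, and 2.33, 2.17 and 1.76 at Day 8. Both Saline libraries lay above all 5 CXCL12 libraries. The log2 fold change at Day 3 was -1.83 ± 0.474 (SE, limma, unadjusted P = 0.0048, adjusted p = 0.62). At Day 8 it was -1.68 ± 0.466 (SE, edgeR, unadjusted P = 0.0083, adjusted p = 0.96), and Day 8 differed from Day 3 by 0.19 ± 0.433 (SE, limma, adjusted p = 0.92). Counts behind these levels were 56 and 68 in the Saline libraries and 17 to 26 in the CXCL12 libraries deposited as counts. The Day 8 call was lost with the replicate number as a block, at -1.58 (edgeR, adjusted p = 1).

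Of the 5 neutrophil genes, S100a8, S100a9 and Cxcr2 were higher in both Saline libraries than in every CXCL12 library. Csf3r and Retnlg were not. S100a8 was at 20.9 and 70.6 CPM in Saline and 4.01 to 16.0 CPM with CXCL12. Csf3r was at 0.483 and 0.478 CPM in Saline and 0 to 0.514 CPM with CXCL12. S100a9, which encodes an abundant neutrophil protein, was at 28.8 and 64.0 CPM in the Saline libraries and 4.37 to 8.53 CPM in the CXCL12 libraries. Cxcr2, the neutrophil chemokine receptor, was at 3.02 and 1.72 CPM in Saline and 0.0836 to 0.52 CPM with CXCL12. Of 4 tested neutrophil markers, 3 were called lower at Day 8 (median log2 difference -2.64) and 2 at Day 3 (-2.35). The summed level of all 5 listed ran from 129 to 197 CPM in Saline and 110 to 174 CPM with CXCL12, with Retnlg at 75.6 and 59.99 CPM in Saline and 85.1 to 163 CPM with CXCL12. Of the 5 macrophage genes, Cd68 was at 66.0 and 38.6 CPM in Saline and 16.7 to 24.1 CPM with CXCL12. At Day 3 all 5 lay below both Saline libraries, with a median log2 difference of -1.1. The 4 besides Cd68 overlapped Saline at Day 8, where the median was -0.445. Adgre1 was at 21.8 and 36.6 CPM in Saline, 20.8 and 15.8 CPM at Day 3, and 12.7, 40.2 and 40.6 CPM at Day 8. The part of these cells in the Slc16a3 difference was not tested. In tissue, fewer cells of a type and less RNA per cell cannot be told apart.

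Slc2a1 (GLUT1), the basal glucose transporter, was measured at 10.03 and 24.3 CPM in Saline, 17.5 and 14.6 at Day 3, and 19.4, 32.9 and 32.1 at Day 8. All Day 8 libraries lay above both Day 3 libraries, but Day 8 and Saline overlapped. The log2 difference was 0.75 ± 0.405 between Day 8 and Day 3 (SE, limma, adjusted p = 0.73) and 0.69 ± 0.456 between Day 8 and Saline (SE, edgeR, adjusted p = 0.96). Slc16a1 (MCT1), which carries lactate in either direction and was the most abundant transporter of the 3, had 24.7 and 43.5 CPM in Saline. It had 50.04 and 53.0 CPM at Day 3 and 21.4, 31.6 and 38.4 CPM at Day 8. The Day 3 libraries were the 2 highest. Slc16a1 was 0.60 ± 0.367 above Saline at Day 3 (SE, log2, limma, adjusted p = 0.62), and Day 8 was 0.76 below Day 3 (log2 difference -0.76 ± 0.335, SE, limma, adjusted p = 0.7).

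Hk2 was the upper glycolysis member with a call. Hexokinase 2 is the inducible enzyme that traps glucose in the cell by phosphorylation. Its level was 39.3 and 54.0 CPM in Saline, 52.0 and 44.2 at Day 3, and 24.99, 23.1 and 20.8 at Day 8. The 3 Day 8 libraries were the lowest of the 7 and close together, with a highest to lowest ratio of 1.20. The log2 fold change from Saline was -1.04 ± 0.279 at Day 8 (SE, edgeR, unadjusted P = 0.0071, adjusted p = 0.96), or 0.486 times the Saline level. At Day 3 it was 0.00 ± 0.268 (SE, limma, adjusted p = 1). Day 8 against Day 3 gave -1.04 ± 0.244 (SE, limma, unadjusted P = 0.0028, adjusted p = 0.65). These changes lie near the fold change of 2, and the Day 8 call was lost without Saline replicate 2 (-0.79), without Day 8 replicate 3 (-0.98) and with the replicate block (-0.96). The call against Day 3 was lost without Day 3 replicate 1 (-0.92), without Day 8 replicate 3 (-0.96) and with the block (-0.96).

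**Figure D3:**
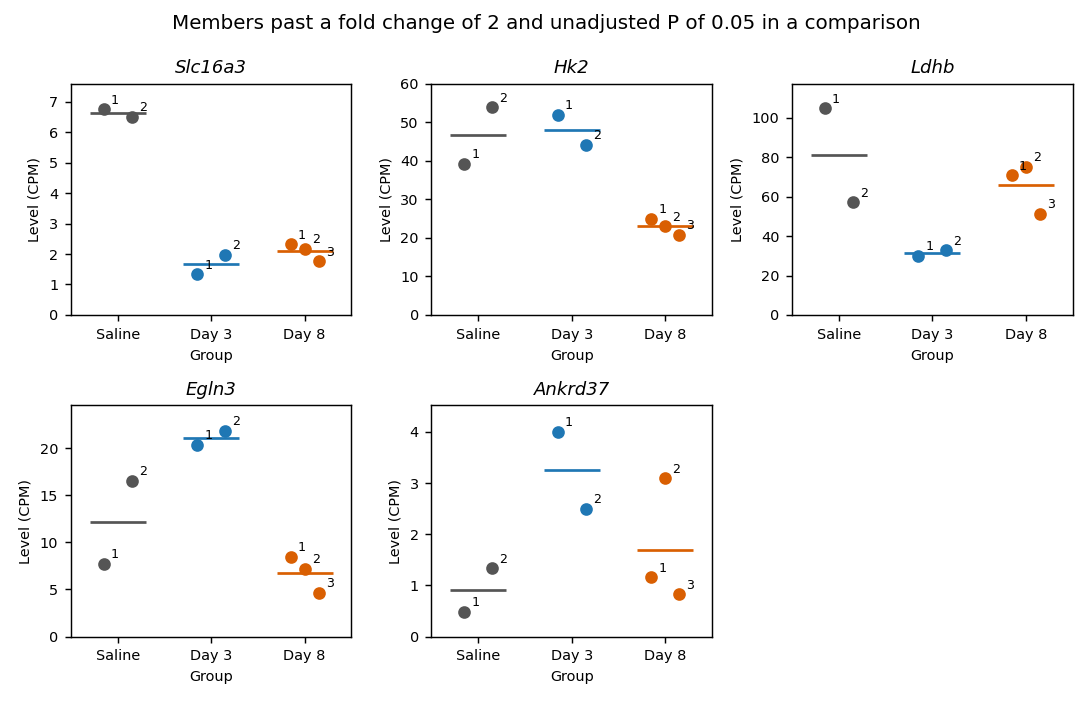
Level in CPM of the 5 members called in a comparison, with a point per library numbered by replicate and a line at the group mean (2 Saline, 2 Day 3, 3 Day 8 libraries). Hk2 was lowest in the 3 Day 8 libraries, Slc16a3 was highest in both Saline libraries, and Egln3 was highest in both Day 3 libraries.

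The other hexokinase of the set, Hk1, the housekeeping form, stayed between 32.8 and 50.5 CPM, and its log2 fold change at Day 8 was -0.01 ± 0.297 (SE, edgeR, adjusted p = 1). Of the 10 upper glycolysis members tested, 6 were higher and 4 lower than Saline at Day 8, and 4 were higher and 6 lower at Day 3. Only Hk2 among them was called in any of the 3 comparisons. Aldoa, the main aldolase, was the most abundant member of the set on the CPM scale, at 353 and 267 in Saline, 348 and 316 at Day 3, and 396, 296 and 274 at Day 8. Its log2 fold change was 0.04 ± 0.304 at Day 8 (SE, edgeR, adjusted p = 0.99) and -0.20 ± 0.269 at Day 3 (SE, limma, adjusted p = 0.8). Aldoc, another aldolase, stood apart in a single library, at 4.04 CPM in Day 8 replicate 3 against 15.9 to 26.2 CPM in the other 6.

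The 3 phosphofructokinase subunits, which form the enzyme of the committing step, had no call. Pfkl, Pfkm and Pfkp had log2 fold changes of 0.24, 0.10 and 0.16 at Day 8 and 0.18, -0.17 and -0.40 at Day 3. Pfkp was at 25.1 and 25.3 CPM at Day 3, below the 31.9 to 40.1 CPM of all other libraries. Gpi1, the glucose phosphate isomerase, was 0.18 ± 0.282 above Saline at Day 8 (SE, log2, edgeR, adjusted p = 0.96). Pfkfb3, which makes the phosphofructokinase activator fructose 2,6-bisphosphate and is a known HIF target, was at 46.8 and 31.8 CPM in Saline, and 31.5 and 20.8 at Day 3. It had 15.8, 54.3 and 49.3 CPM at Day 8, so its spread within Day 8 was 3.43-fold. Pfkfb4, its relative, stayed between 3.26 and 7.603 CPM.

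In lower glycolysis, Tpi1, Gapdh and Pgk1 were higher in both Day 3 libraries than in both Saline libraries, without a call. This held in CPM and on the quantile-normalized scale, and the Pgk1 difference was under a fold change of 1.5. Tpi1, the triose phosphate isomerase, was at 62.5 and 176 CPM in Saline, 223 and 208 at Day 3, and 231, 121 and 111 at Day 8. The log2 fold change at Day 3 was 0.87 ± 0.489 (SE, limma, adjusted p = 0.62). It depended on which Saline library was kept, with 1.60 without Saline replicate 2 and 0.14 without Saline replicate 1. Gapdh had 18.2 and 25.2 CPM in Saline, 35.0 and 33.1 at Day 3, and 24.5, 21.8 and 22.1 at Day 8. Its log2 fold change at Day 3 was 0.64 ± 0.268 (SE, limma, unadjusted P = 0.044, adjusted p = 0.62).

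Pkm, the pyruvate kinase of most tissues, was the most abundant lower glycolysis member on the CPM scale and the steadiest. It was at 178 and 209 CPM in Saline, 217 and 209 at Day 3, and 232, 196 and 180 at Day 8. The log2 fold changes were -0.09 ± 0.207 at Day 3 (SE, limma, adjusted p = 0.89) and 0.05 ± 0.271 at Day 8 (SE, edgeR, adjusted p = 0.99). Pgk1, the phosphoglycerate kinase, was 0.55 above Saline at Day 3 and 0.14 below it at Day 8 (log2 fold changes 0.55 ± 0.427 and -0.14 ± 0.446, SE). It was at 35.2 and 67.2 CPM in Saline, 79.9 and 71.0 at Day 3, and 70.9, 36.0 and 34.1 at Day 8. Pgam1, the phosphoglycerate mutase, had log2 fold changes of -0.35 and -0.25 at Day 3 and Day 8. The neuronal enolase Eno2 stayed between 1.51 and 4.93 CPM.

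Ldhb and Ldha, the 2 lactate dehydrogenase subunits, differed in pattern. Ldhb, which favours conversion of lactate to pyruvate, was at 105 and 57.3 CPM in Saline, 30 and 32.8 at Day 3, and 70.9, 75.3 and 51.4 at Day 8. The Day 3 libraries were the 2 lowest, and Day 8 overlapped Saline. The log2 fold change at Day 3 was -1.37 ± 0.368 (SE, limma, unadjusted P = 0.0058, adjusted p = 0.62). Without Saline replicate 1 it was -0.87, under the fold change of 2. Day 8 was 1.06 ± 0.336 above Day 3 (SE, log2, limma, unadjusted P = 0.013, adjusted p = 0.69), and this call was lost without Day 3 replicate 1 (0.99) and without Day 8 replicate 2 (0.95). At Day 8 Ldhb differed from Saline by -0.32 ± 0.350 (SE, log2, edgeR, adjusted p = 0.96).

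Ldha, which favours lactate formation, was at 115 and 252 CPM in Saline, 318 and 257 at Day 3, and 289, 134 and 139 at Day 8. The groups overlapped at Day 8. The log2 fold changes were 0.53 ± 0.436 at Day 3 (SE, limma, adjusted p = 0.68) and 0.01 ± 0.484 at Day 8 (SE, edgeR, adjusted p = 1). The pyruvate dehydrogenase kinases, which keep pyruvate out of the mitochondrion, had log2 fold changes of 0.23 (Pdk1) and 0.17 (Pdk3) at Day 3 and -0.16 and -0.23 at Day 8.

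Neither factor was called in a comparison. Hif1a was at 72.4 and 88.9 CPM in Saline, 82.1 and 85.2 at Day 3, and 59.9, 84.6 and 94.98 at Day 8. Its log2 fold changes were -0.07 ± 0.281 at Day 3 (SE, limma, adjusted p = 0.94) and -0.04 ± 0.302 at Day 8 (SE, edgeR, adjusted p = 0.99). Epas1 was at 69.1 and 51.2 CPM in Saline, 45.2 and 44.6 at Day 3, and 43.4, 68.7 and 61.6 at Day 8. Both Day 3 libraries lay below both Saline libraries, and Day 8 overlapped Saline. Its log2 fold changes were -0.48 ± 0.309 at Day 3 (SE, limma, adjusted p = 0.63) and -0.08 ± 0.311 at Day 8 (SE, edgeR, adjusted p = 0.98). HIF proteins are controlled mainly by degradation, which mRNA levels do not measure. Egln1, the main oxygen sensor, had log2 fold changes of 0.19 at Day 3 and 0.22 at Day 8.

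Egln3, a prolyl hydroxylase that HIF induces, was the member with the largest difference between the CXCL12 days among those called. Its level was 7.73 and 16.6 CPM in Saline, 20.3 and 21.9 at Day 3, and 8.49, 7.19 and 4.66 at Day 8. Both Day 3 libraries lay above all others, and Day 8 overlapped Saline. Day 8 against Day 3 gave -1.71 ± 0.408 (SE, log2, limma, unadjusted P = 0.003, adjusted p = 0.65), and the value ran from -1.91 to -1.47 when single libraries were left out, with the call kept each time. Against Saline the log2 fold changes were 0.90 ± 0.447 at Day 3 (SE, limma, adjusted p = 0.62) and -0.86 ± 0.451 at Day 8 (SE, edgeR, adjusted p = 0.96).

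Ankrd37, a small ankyrin repeat protein and HIF-1 target, was the only member called higher than Saline. It was at 0.483 and 1.34 CPM in Saline, 4.01 and 2.498 at Day 3, and 1.16, 3.09 and 0.829 at Day 8. Both Day 3 libraries lay above both Saline libraries, while Day 8 overlapped both groups. The log2 fold change at Day 3 was 2.17 ± 0.761 (SE, limma, unadjusted P = 0.021, adjusted p = 0.62). It rested on 4 and 14 counts in Saline and 24 in Day 3 replicate 2. The call was lost without quantile normalization (1.58), in edgeR on estimated counts (1.77), and without Saline replicate 1 (1.46), Day 3 replicate 1 (1.88) or Day 3 replicate 2 (2.49). At Day 8 the difference was 0.86 ± 0.897 (SE, log2, edgeR, adjusted p = 0.96).

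The other HIF targets did not move together. Bnip3, a mitophagy receptor, was at 47.2 and 36.5 CPM in Saline, 34.1 and 14.4 at Day 3, and 21.4, 49.6 and 43.0 at Day 8. Both Day 3 libraries were below Saline, with a log2 fold change of -0.93 ± 0.507 (SE, limma, adjusted p = 0.62). Without Day 3 replicate 1 it was -1.52, past the call, and without Day 3 replicate 2 it was -0.33. Car9, a carbonic anhydrase that is a common marker of hypoxic tissue, was at 4.71 and 5.07 CPM in Saline, 5.55 and 4.16 at Day 3, and 1.86, 4.60 and 3.73 at Day 8. Its 0.66 lower level at Day 8 than at Day 3 had no call (log2 difference -0.66 ± 0.436, SE, limma, adjusted p = 0.75), and the groups overlapped in CPM although not on the quantile-normalized scale.

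Ddit4 (REDD1), a stress-induced inhibitor of mTORC1 signalling, had 39.5 and 48.2 CPM in Saline, 46.9 and 64.4 at Day 3, and 50.6, 58.4 and 42.0 at Day 8. Its log2 fold changes were 0.26 ± 0.284 at Day 3 (SE, limma, adjusted p = 0.75) and 0.18 ± 0.281 at Day 8 (SE, edgeR, adjusted p = 0.96). Ndrg1, a stress gene also raised by hypoxia, had 42.0 and 22.1 CPM in Saline, 24.0 and 31.1 at Day 3, and 16.0, 92.98 and 116 at Day 8. Day 8 replicates 2 and 3 were the highest of the 7 libraries and Day 8 replicate 1 the lowest. The log2 fold change was 1.20 ± 0.764 at Day 8 (SE, edgeR, unadjusted P = 0.16, adjusted p = 0.96). Without Day 8 replicate 1 Ndrg1 was called, beside 6.69% of all genes tested.

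Members whose groups did not overlap and that differed by a fold change of at least 1.5 numbered 2 at Day 8 against Saline, 8 at Day 3 against Saline and 6 in Day 8 against Day 3. Over all genes tested, the share that met this was 11% at Day 8, 24.5% at Day 3 and 15.6% in Day 8 against Day 3. The members' counts are near these shares.

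The spread between replicates of a group was large for several members, and the same libraries stood together. Saline replicate 1 and Day 8 replicates 2 and 3 were the 3 lowest libraries for 7 of 32 members (21.9%), namely Aldoc, Tpi1, Gapdh, Pgk1, Ldha, Pdk3 and Egln3, and for 14.1% of all genes. The same libraries were the 3 highest for 7 members, Epas1, Hk1, Pfkm, Eno2, Pfkfb3, Bnip3 and Ndrg1, and for 12.8% of all genes. Between the Saline libraries, replicate 2 had 2.82 times the Tpi1, 2.18 times the Ldha and 1.91 times the Pgk1 level of replicate 1. Within Day 8, replicate 1 had 1.99, 2.12 and 2.02 times the mean of replicates 2 and 3 for these genes. It had 0.154 times their mean for Ndrg1, 0.305 times for Pfkfb3 and 0.462 times for Bnip3. These patterns were seen in the values first and are a description with no test.

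Several calls turned on these libraries. Without Saline replicate 2, limma called 7 members at Day 3 beside 2849 of all genes (19.4%), adding Tpi1, Ldha, Egln3 and Slc16a1. There, 3 of 32 members passed the adjusted p of 0.1, beside 2358 of all genes (16.1%), so the members' count is not above the background. Without Saline replicate 1, only Slc16a3 was called at Day 3 beside 294 genes, while edgeR added Egln3 at Day 8. Without Saline replicate 2, edgeR added Slc2a1 at Day 8. The edgeR fits that added Egln3 and Slc2a1 each kept 1 Saline library, so these calls are no result about the members. Without Day 8 replicate 1, limma called 8 members in Day 8 against Day 3 beside 1642 genes (11.1%), namely Hk2, Aldoc, Pgk1, Egln3, Ldhb, Bnip3, Ndrg1 and Pfkfb3. There, 3 of 32 members passed the adjusted p of 0.1, beside 468 of all genes (3.18%). In this run both shares of members were above those of all genes, and the difference was not tested.

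**Figure D4:**
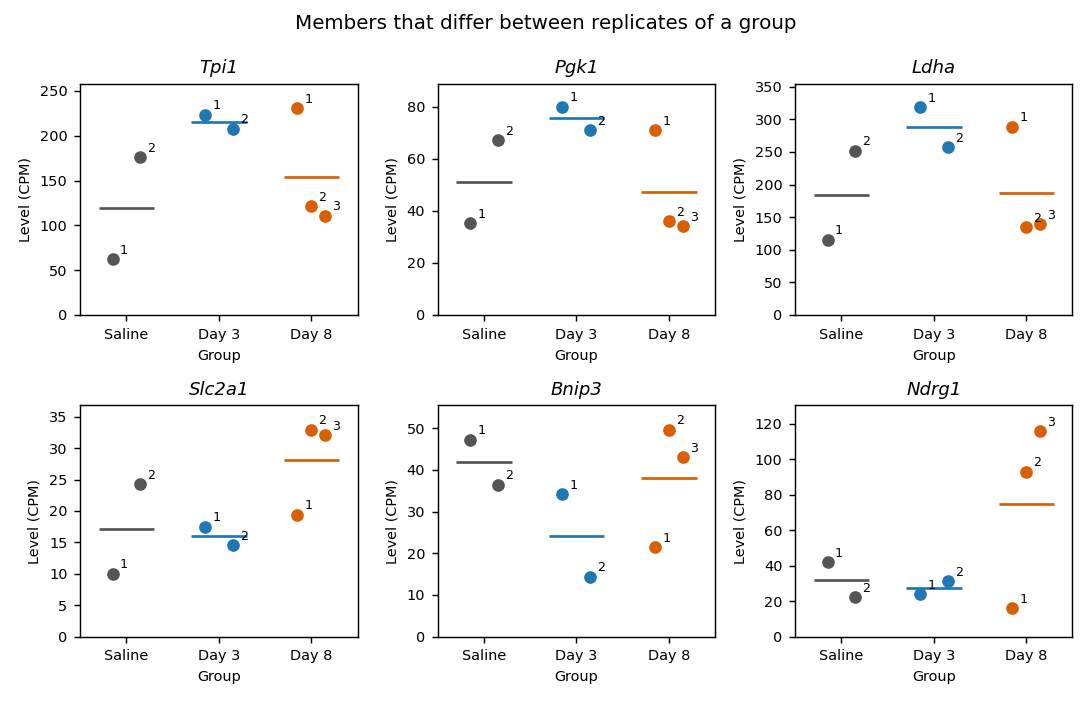
Level in CPM of 6 members that varied between replicates of a group, with a point per library numbered by replicate and a line at the group mean (2 Saline, 2 Day 3, 3 Day 8 libraries). Tpi1, Pgk1 and Ldha were low in Saline replicate 1 and Day 8 replicates 2 and 3, and Ndrg1 was highest in Day 8 replicates 2 and 3.

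Markers of proliferation and hormone state also varied between libraries. The summed level of 5 proliferation genes was 337 and 839 CPM in Saline, 775 and 643 at Day 3, and 432, 172 and 165 at Day 8. Saline replicate 1 and Day 8 replicates 2 and 3 were the 3 lowest libraries of the proliferation sum, which was not so for the hormone lists. Of the proliferation genes, 3 were called lower at Day 8 than in Saline. The sum of 7 oestrogen-induced uterine genes was 997 and 875 CPM in Saline, 1614 and 1411 at Day 3, and 857, 284 and 414 at Day 8, with 1 gene called lower at Day 8 than in Saline and 4 lower than at Day 3. The sum of 8 progesterone-induced genes was 57.5 and 133 CPM in Saline, 199 and 232 at Day 3, and 133, 232 and 436 at Day 8, and 4 of them were called higher at Day 8. The part of proliferation and hormone state in the levels of the members was not tested.

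Other tissues were present to unequal extents. The ovary list summed to 3548 CPM in Day 8 replicate 2 and to 8.43 to 869 CPM elsewhere, with 3 of its 4 tested genes called lower at Day 3 than in Saline. The adipocyte list ran from 314 to 3023 CPM in the Saline and Day 3 libraries and from 243 to 379 CPM at Day 8, where all 7 of its genes were called lower than in Saline. Red blood cell genes summed to 5670 and 9984 CPM in Saline and 9832 to 27320 CPM with CXCL12, and 2 of 5 were called higher at Day 3. The macrophage list summed to 537 and 293 CPM in Saline, 212.5 and 179 CPM at Day 3, and 168, 357 and 365 CPM at Day 8. It had 1 gene called lower at Day 8 and 2 at Day 3. The smooth muscle list summed to 2402 and 1596 CPM in Saline, 3234 and 3688 at Day 3, and 1952, 4332 and 4094 at Day 8. It had 2 genes called higher at Day 8 and 1 at Day 3. The epithelium, stroma, endothelium and oviduct lists had no gene called in any comparison, and each summed to at least 171.5 CPM in every library. Over the libraries the sums ran from 436 to 1009 CPM for epithelium and from 7542 to 13860 for stroma. They ran from 171.5 to 319 for endothelium and from 278 to 796 for oviduct. The endothelium sum was highest in Day 8 replicates 2 and 3. Skeletal muscle genes summed to 33.5 to 91.9 CPM, 1 was called higher at Day 3, and the defining gene Myh4 was at 0 in all libraries.

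Beyond the 33 members, 31 other glycolysis and gluconeogenesis genes were examined on 29 tested rows at Day 8 and 28 at Day 3. At Day 8, 16 rows were higher and 13 lower with a median log2 difference of 0.09, and only Slc2a12 was called. Slc2a12 (GLUT12), another glucose transporter, was at 8.94 and 4.69 CPM in Saline, 7.40 and 10.6 at Day 3, and 10.1, 27.3 and 43.6 at Day 8. Its log2 fold change at Day 8 was 1.97 ± 0.653 (SE, edgeR, unadjusted P = 0.019, adjusted p = 0.96). At Day 3, 19 rows were higher and 9 lower with a median of 0.32, and only Slc16a7 (MCT2) was called, at 1.296 ± 0.541 (SE, log2, limma, adjusted p = 0.62). Both rows of Eno1b had Saline replicate 1 and Day 8 replicates 2 and 3 among their lower values, at 17.1 to 22.2 CPM against 32.4 to 44.9 CPM in the other 4 libraries. None of the 7 pentose phosphate pathway genes was called in any comparison, with medians of 0.18 at Day 3 and -0.02 at Day 8. At Day 3, 6 of the 7 were higher. In Day 8 against Day 3 all 7 were lower, with a median of -0.228 beside 0.003 over all genes. In that comparison 18 of 28 rows of the other glycolysis list were lower, with a median of -0.193. The difference of these lists from all genes was not tested.

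Of 8 other HIF regulators, 1 was called in each comparison. Hif3a, a HIF subunit whose short forms oppose HIF-1, had 1 and 1 counts in Saline, 4 in Day 3 replicate 2, and 7, 53 and 23 at Day 8. The ratio of Day 8 to Saline was 25.7, with a 95% counting interval of 6.9 to 216. The interval covers counting error only, and edgeR gave an unadjusted P of 0.007 and an adjusted p of 0.96. Arnt2, a dimerization partner of HIF subunits, was at 20.5 and 28.4 CPM in Saline, 4.11 and 8.53 at Day 3, and 12.7, 14.1 and 19.99 at Day 8. The log2 difference was -1.95 ± 0.415 at Day 3 against Saline (SE, limma, adjusted p = 0.62) and 1.27 ± 0.379 at Day 8 against Day 3 (SE, limma, adjusted p = 0.69). Both Day 3 libraries were the lowest of the 7.

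Among 28 other HIF targets, of which 27 were tested, 11 were higher and 16 lower at Day 8 with a median log2 difference of -0.21. At Day 3, 15 were higher and 12 lower with a median of 0.04. Hmox1, the heme oxygenase, was at 4.47 and 5.55 CPM in Saline, 2.26 and 1.56 at Day 3, and 0.581, 2.17 and 1.24 at Day 8, and was called lower at Day 8 (-1.91 ± 0.663, SE, log2, edgeR, adjusted p = 0.96). Stc2, a secreted stress glycoprotein, had 5.44 and 15.9 CPM in Saline, 31.4 and 27.4 at Day 3, and 11.5, 8.53 and 7.87 at Day 8. It was called higher at Day 3 than in Saline (1.65 ± 0.494, SE, log2, limma, adjusted p = 0.62) and lower at Day 8 than at Day 3 (-1.69 ± 0.451, SE, limma, adjusted p = 0.65).

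Bhlhe40, a transcriptional repressor, and Tfrc, the transferrin receptor, were also called lower at Day 8 than at Day 3. Bhlhe40 was at 12.8 and 32.3 CPM in Saline, 37.2 and 43.3 at Day 3, and 16.4, 8.78 and 8.18 at Day 8 (log2 difference from Day 3 -1.93 ± 0.460, SE, limma, adjusted p = 0.65). Tfrc was at 21.1 and 102 CPM in Saline, 135 and 116 at Day 3, and 67.4, 30.4 and 24.3 at Day 8 (-1.67 ± 0.657, SE, limma, adjusted p = 0.7). In Day 8 against Day 3, 12 of the 27 tested other HIF targets were higher and 15 lower, with a median log2 difference of -0.236. Of these, 3 were called, beside 4.53% of all genes. As for Egln3, both Day 3 libraries of Stc2, Bhlhe40 and Tfrc lay above all others, which naming genes by this call makes likely. Saline replicate 1 and Day 8 replicates 2 and 3 were their lowest libraries, as for Egln3.

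The genes whose log2 levels followed Ankrd37 most closely over the 7 libraries were Hacd1 (Pearson r = 0.99), Pdhb, Isca1, Fam219b and Mpg (r = 0.963 for the last), among 9334 genes with a mean of at least 10 CPM. For Slc2a1 they were Cst3 (r = 0.989), Fdft1, Acsl4, Zfp781 and Ctps (r = 0.973). No member of the set was among them. With 7 libraries that share groups and depth, these values are a description.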

How the data were processed

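The authors used Bowtie2 for alignment of QuantSeq 3′ reads and Bedtools for counting, with unique and multiple alignments both included, and normalized read counts by the quantile method in edgeR. The submitters' processing notes list mm10 and hg19, and versions are not given in the sources used here. The authors deposited read counts for 6 libraries and log2 values of normalized counts for Day 3 replicate 1. After the log2 was undone and a factor of 1.0515 divided out, 97.2% of 3661 low values of that table lay within 0.1 of a whole number. The factor was the candidate that made this share largest. Chance gives 20% for a factor fixed beforehand, and the share for a searched factor was not computed. Rows with no symbol, up to 2028 per table, were dropped, and 35 symbols on several rows were kept apart.

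Day 8 against Saline was tested in edgeR 4.0.16 (TMM, filterByExpr, quasi-likelihood test, 3 groups, 6 libraries, 3 residual degrees of freedom, 15388 genes). Both comparisons with Day 3 used limma 3.58.1 with a trend on log2(normalized count + 1), brought to a common library size and then quantile-normalized across the 7 libraries (14830 genes with at least 10 scaled counts in at least 2 libraries, 4 residual degrees of freedom). This scale understates changes of low genes. For edgeR, the standard error was taken as the absolute log2 fold change over the root of F. P-values were adjusted by Benjamini-Hochberg over all genes tested. CPM values were scaled by TMM over 7 libraries.

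The members, the companion and marker lists and the tests were chosen with earlier results of these data known. Full statistics were given for members called, for members whose groups did not overlap with a fold change of at least 1.5, and for the most abundant member of each role. Companion genes were named where called, or where a result turned on them. Tests were checked on simulated data. Alternatives were upper-quartile normalization, DESeq2 1.42.0, limma for Day 8, a pseudocount of 0.1, no quantile normalization, edgeR on estimated counts, no filter, a replicate block, and leaving out each library. Library totals alone were added after seeing the data. R 4.3.3 was used.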

Additional observations from a re-analysis of the deposited data

Results flagged for a closer look

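Day 3 and Day 8 were set against each other for 6 members, 3 called by limma in Day 8 against Day 3 (4.53% of all genes were) and 4 with all libraries of the 2 days on opposite sides of the Saline mean (5.72% of all genes). Egln3 met both. None passed the adjusted p of 0.1. Hk2 was 1.04 lower at Day 8 (log2 difference -1.04, unadjusted P = 0.0028, limma adjusted p = 0.65), with 3 of 3 Day 8 libraries below both Saline and both Day 3 libraries. Ldhb was higher at Day 8 (1.06, unadjusted P = 0.013, limma adjusted p = 0.69), with the Day 3 libraries the lowest. Egln3 was lower at Day 8 (-1.71, unadjusted P = 0.003, limma adjusted p = 0.65), with 2 of 2 Day 3 libraries above the Saline mean and 3 of 3 Day 8 libraries below it.

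Another 3 members had the 2 days on opposite sides of the Saline mean in all 5 CXCL12 libraries without a call. Gpi1 differed by 0.30 (limma adjusted p = 0.78), Pfkp by 0.55 (adjusted p = 0.7) and Pdk3 by -0.39 (adjusted p = 0.74). This rule ignores the spread of the Saline libraries. On the quantile-normalized log2 scale, all 5 CXCL12 values of Gpi1 (9.38 to 9.78) lay between the Saline values of 9.19 and 9.8. For Pdk3, Day 8 replicate 1 (8.05) lay between the Saline values of 7.99 and 8.12. For Pfkp all 5 lay outside the Saline values of 8.36 and 8.37. Groups of 2 or 3 libraries were not searched for outlying libraries.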

How the results depend on the processing

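No called member changed direction under any alternative run. A call needs a fold change of 2, which makes a turn unlikely from the start, so this lends the calls no weight. Members with small differences did turn, in up to 13 of 32 cases without Day 8 replicate 1. In Day 8 against Saline, DESeq2 placed 49 genes at the adjusted p of 0.1, and the replicate block left 0 members and 157 genes called. Library totals alone moved the median of the members to -0.256 and that of all genes to -0.268, with 17.6% of 626 called genes higher against 235 of 453 with TMM. The TMM factors over the 7 libraries were 1.198 and 1.101 in Saline and 0.896, 0.972 and 0.971 at Day 8. What lies behind this difference in factors was not tested. In Day 3 against Saline, no quantile normalization gave 1042 genes called, 10.2% of them higher, and a members' median of -0.193 beside -0.263 for all genes, while edgeR on estimated counts had 21.2% higher and limma as reported 296 of 688. No filter placed 36 genes at the adjusted p of 0.1. In Day 8 against Day 3, no filter placed 28 genes there, the block left 418 genes called, and edgeR had 68% of called genes higher against 326 of 672. Leaving out single libraries gave 1 to 3 members, 229 to 1527 genes called, 0 to 15 genes at the adjusted p and medians of -0.014 to 0.037 in Day 8 against Saline. The ranges were 1 to 7, 260 to 2849, 0 to 2358 and -0.019 to 0.142 in Day 3 against Saline, with the most without Saline replicate 2. They were 2 to 8, 257 to 1642, 0 to 468 and -0.099 to 0.055 in Day 8 against Day 3, with the most without Day 8 replicate 1. Where an arm kept 1 library, that library was assumed to vary like the others. Same-numbered libraries of different groups correlated at -0.173 to 0.01 in their deviations, and the labels do not say that the numbers pair horns of one animal, so pairing was neither shown nor excluded. The replicate block cost Hk2 its calls and Slc16a3 its Day 8 call. Genes near 3 counts, such as Hif3a in Saline, cannot be compared closely at this depth.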
